A study of Mus musculus with 6 samples.

Results

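Small RNA pathway genes encode the proteins that make, load and use short guide RNAs. The 10 genes described here were picked by symbol for their role in these pathways: 8 belong to the piRNA pathway (Piwil2, Piwil4, Ddx4, Mael, Tdrd1, Tdrd9, Tdrkh and Pld6) and the other 2, Dicer1 and Ago2, act in RNA interference and the microRNA pathway. All 10 were found among the 25631 genes of the deposited expression table. In aged mouse oocytes the transcripts of 7 of them, led by Mael and Dicer1, were abundant enough to test, and none of the 7 differed between aminophylline and control by more than the spread between libraries. The other 3, Piwil2, Piwil4 and Pld6, lay below the level required of the genes tested.

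PIWI-interacting RNAs (piRNAs) are germ line small RNAs that guide PIWI proteins to transposon transcripts. Their precursors are cut at the mitochondrial surface and handled in a perinuclear cloud of RNA and protein, the nuage, in which Tudor domain proteins hold PIWI proteins by their methylated arginines. Loss of this pathway makes male mice sterile, while female mice are largely fertile without it. Mouse oocytes also rely on endogenous small interfering RNAs (endo-siRNAs), which Dicer cuts from double-stranded RNA and which guide the slicing protein Argonaute 2. The microRNA pathway uses the same Dicer and Argonaute proteins, but microRNAs repress their targets only weakly in full-grown oocytes. Much of the Dicer in mouse oocytes is a short form made from a promoter inside a retrotransposon, and a value per gene does not separate it from the long form.

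RNA was sequenced from oocytes punctured out of large antral follicles of ICR mice aged 14 months, in 6 libraries. The aminophylline group (n = 3) drank 4 mM aminophylline, a theophylline derivative that inhibits phosphodiesterases, for 1 week and then plain water for 3 weeks. The control group (n = 3), labelled aged and untreated, had plain water throughout, and all mice received equine chorionic gonadotropin before the oocytes were collected. How many mice and oocytes went into each library is not given in the sources used here, so the p-values measure only the spread between these libraries, which may in part be technical. The question the comparison addresses is how the earlier aminophylline course left the transcripts of antral oocytes in old mice.

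Expression was given as FPKM, a count of fragments scaled by gene length and library total, so a comparison between genes rests on the length used for each. Whole read counts recovered from these values came to 14112341 to 33641283 per library, with control 2 the lowest, and 3 reads, the upper limit that a count of 0 allows, equal 0.0892 to 0.213 RPM (reads per 1000000 reads of the library). Of the 12 markers of the oocyte, the labelled cell type, 11 stood at 1 FPKM or more in every library, and their summed level ranged from 18240 to 25060 FPKM. Summed levels of granulosa and cumulus cell markers ranged from 16.3 to 24.2 FPKM. The 14 macrophage markers summed to 249.9 FPKM in control 1 and to between 83.7 and 104.4 in the other libraries, and 11 of the 14 were highest in control 1. Most of the sum outside control 1 came from C1qb, at 72.3 FPKM in control 1 and 79.2 to 99.8 in the other libraries. Lyz2, by contrast, stood at 66.4 FPKM in control 1 and at 0.573 or less in the others. The part of the macrophage markers in the results below was not tested. In a pooled sample, fewer cells of a type and less RNA per cell cannot be told apart.

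Promoter sequence is shown for 4 genes, Tdrd1, Tdrd9, Tdrkh and Dicer1, because of patterns described below. The 3 Tudor genes were each highest in library 3 of both groups, and Dicer1 had the largest difference between groups among the members. Piwil2 and Piwil4, whose sequence is not shown, were also highest in library 3 of both groups, as were 34.4% of all tested genes. The sequences come from RefSeq (assembly GRCm38.p6), run 5′ to 3′ toward the gene on its own strand, and stop at the last base before the annotated gene. Windows were found for 8 of the 10 members, all but Piwil2 and Ago2. For Dicer1 the stretch lies upstream of the whole annotated gene. The retrotransposon promoter of the short form was not located here, and which promoter the oocytes used was not tested. Capitals mark the E-box, CANNTG, a motif bound by helix-loop-helix factors that reads the same on both strands.
Tdrd1, chr19:56825959-56826170, plus strand: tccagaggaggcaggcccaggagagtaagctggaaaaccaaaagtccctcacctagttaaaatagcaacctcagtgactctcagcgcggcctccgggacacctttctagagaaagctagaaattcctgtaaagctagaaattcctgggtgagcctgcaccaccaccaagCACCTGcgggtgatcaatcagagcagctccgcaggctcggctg
Tdrd9, chr12:111971309-111971487, plus strand: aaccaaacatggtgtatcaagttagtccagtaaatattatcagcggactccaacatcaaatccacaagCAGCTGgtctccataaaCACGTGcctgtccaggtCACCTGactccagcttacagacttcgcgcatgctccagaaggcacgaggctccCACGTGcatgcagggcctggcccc
Tdrkh, chr3:94412994-94413242, plus strand: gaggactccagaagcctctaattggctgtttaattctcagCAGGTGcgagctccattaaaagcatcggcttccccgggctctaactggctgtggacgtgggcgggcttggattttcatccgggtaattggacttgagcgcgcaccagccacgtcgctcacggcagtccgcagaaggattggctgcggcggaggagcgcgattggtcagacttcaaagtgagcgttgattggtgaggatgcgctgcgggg
Dicer1, chr12:104751969-104752202, minus strand: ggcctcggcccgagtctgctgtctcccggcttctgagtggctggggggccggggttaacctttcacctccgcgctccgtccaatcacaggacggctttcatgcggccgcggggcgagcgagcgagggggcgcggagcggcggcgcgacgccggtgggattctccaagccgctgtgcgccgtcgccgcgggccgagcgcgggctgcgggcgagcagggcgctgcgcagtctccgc
The Tdrd9 stretch holds 4 E-boxes, those of Tdrd1 and Tdrkh hold 1 each, and that of Dicer1 holds 0. Counted over 250 bases upstream of each RefSeq start, an E-box was found in 11 of the 12 member windows and in 66.2% of all 32851 windows. By gene it was found in 7 of the 8 members with a window. A pair of further motifs was searched on both strands. The MYB type motif (CAACNG or TAACNG) is of the kind bound by the regulators of piRNA genes in the testis. It was present in 4 of 12 member windows, from 3 of 8 genes, against 43.1% of all windows. The NOBOX type motif (TAATTG or TAATTA), of the kind bound by an oocyte homeobox factor, was present in 1 of 12 member windows, that of Tdrkh, against 11.3%. The Dicer1 window was the richest in CpG among the 4 genes, with 39 CpG over 250 bases, against 19 for Tdrkh, 8 for Tdrd9, 11, 22 and 3 for the 3 RefSeq windows of Tdrd1 (the first of them is printed) and a median of 6 over all windows. A match describes letters and is not evidence that a factor binds there.

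Levels of the 10 genes spanned a wide range, from well expressed to barely detected. Mael was the highest, with a mean of 53.8 FPKM over the 6 libraries, followed by Dicer1 (26.4 FPKM), Tdrd1 (21.5 FPKM), Tdrkh (20.7 FPKM) and Ago2 (14.6 FPKM). Then came Ddx4 (4.92 FPKM), Tdrd9 (1.79 FPKM), Pld6 (0.783 FPKM), Piwil2 (0.192 FPKM) and Piwil4 (0.0265 FPKM). The steps from Mael to Dicer1, from Ago2 to Ddx4, from Ddx4 to Tdrd9, from Tdrd9 to Pld6 and from Pld6 to Piwil2 were larger than the whole spread of the libraries, since the ranges did not overlap. Dicer1, Tdrd1, Tdrkh and Ago2 formed a group of neighbours whose ranges overlapped: Dicer1 exceeded Tdrd1 in 4 of 6 libraries, Tdrd1 exceeded Tdrkh in 4 of 6 and Tdrkh exceeded Ago2 in 5 of 6. The ranges of Piwil2 and Piwil4 also overlapped, although Piwil2 was the higher in every library. Mael alone made up 43.3% to 62.6% of the summed FPKM of the 8 piRNA genes. These levels rest on the lengths implied by the FPKM values, which for some members differed from the exon bases of the GENCODE annotation. The implied length was 4996 bases against 3014 for Ddx4, 8031 against 14031 for Ago2 and 11045 against 16750 for Dicer1. How the order of the members would stand with other lengths was not tested.

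**Figure D1:**
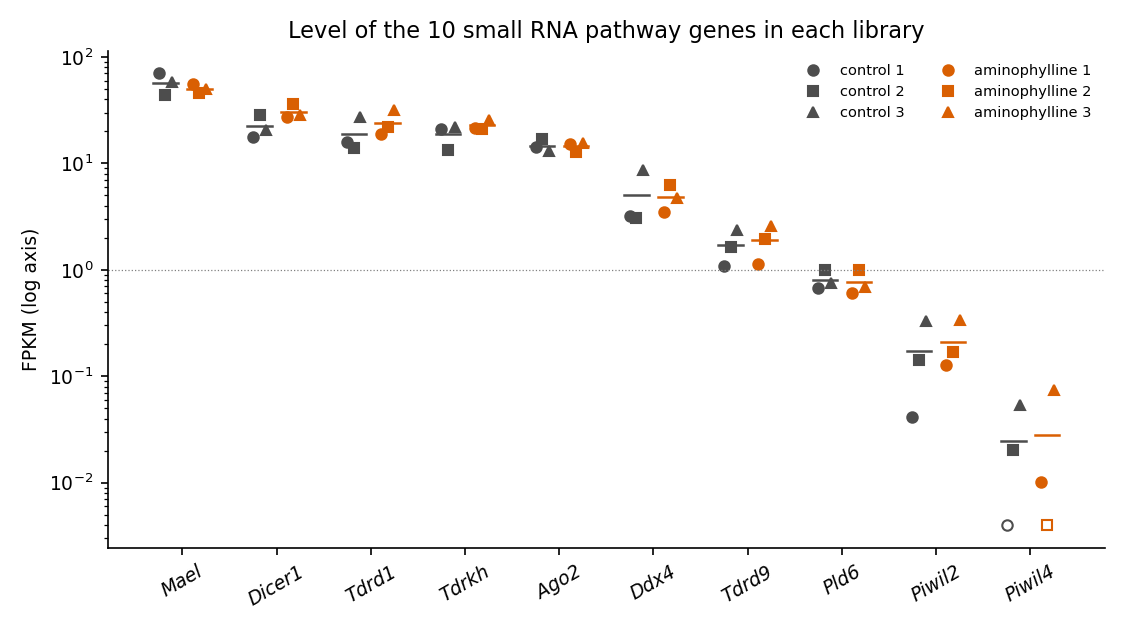
FPKM (log axis) of the 10 genes in each of the 6 libraries, control in grey and aminophylline in orange, with the shape of the point giving the library number and a bar the mean of the 3 libraries. Open points at the bottom stand for 0 reads, and the dotted line marks 1 FPKM, the level a gene had to reach in 3 libraries to be tested; the 2 groups overlap for all 10 genes, and Pld6, Piwil2 and Piwil4 lie at or under the line.

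The PIWI proteins bind the piRNAs themselves, and the members that encode them, Piwil2 and Piwil4, stood lowest among the members. This does not hold for every PIWI gene. Piwil1, from the list of other piRNA pathway genes described below, averaged 1.4 FPKM over the libraries, above Pld6 (0.783 FPKM) and Piwil2 (0.192 FPKM). Its log2 difference was 0.31 (SE 0.24, limma adjusted p = 0.749). Piwil2 (NCBI gene 57746, chr14:70372477-70436898, minus strand) encodes MILI, the slicing PIWI protein of the cytoplasm. It gave 9, 13 and 68 reads in control 1 to 3 (0.0417, 0.144 and 0.333 FPKM) and 23, 27 and 66 reads in aminophylline 1 to 3 (0.127, 0.170 and 0.336 FPKM). Library 3 was the highest in both groups, and the lowest library was control 1, where 9 reads have an exact 95% Poisson interval of 4.12 to 17.1 reads. Summed over the groups, Piwil2 had 90 control and 116 aminophylline reads, or 1.13 RPM (95% interval 0.910 to 1.39) and 1.39 (1.15 to 1.66), intervals that overlap and cover counting error only. No difference between the groups in FPKM was detected (exact permutation test, two-sided, p = 0.7, n = 3 against 3), in a design where the smallest p this test allows is 0.1.

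Piwil4 (NCBI gene 330890, chr9:14701776-14740672, minus strand) encodes MIWI2, the PIWI protein that directs transposon methylation in fetal male germ cells. It had 0, 1 and 6 reads in control 1 to 3 and 1, 0 and 8 reads in aminophylline 1 to 3. Of these 6 counts, only those of the libraries numbered 3 exceeded the floor of 3 reads. A difference in Piwil4 was not detectable at this depth (exact permutation test, p = 0.9, n = 3 against 3). Its exons share 137 bases, 2.54% of their length, with a gene annotated on the opposite strand, and whether the counting used strand is not stated.

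Ddx4 and Mael belong to the nuage. Ddx4 (NCBI gene 13206, chr13:112598333-112652633, minus strand) encodes the Vasa RNA helicase, a standard marker of germ cells. Its level was 3.23, 3.08 and 8.72 FPKM in control 1 to 3 and 3.49, 6.32 and 4.71 FPKM in aminophylline 1 to 3. Control 3 stood highest by itself, and all 3 aminophylline libraries lay within the control range. Group means were 5.01 ± 3.22 FPKM (SD, n = 3) in control and 4.84 ± 1.42 FPKM (n = 3) in aminophylline. Ddx4 had the widest spread of the tested members in control: the coefficient of variation was 64.2%, against 4.89% from counting alone, on 217 to 1386 reads a library. The difference, aminophylline minus control, was 0.05 on the log2(FPKM + 1) scale (SE 0.34, limma adjusted p = 0.975), and its sign turned when the values were quantile normalized (-0.05).

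Mael (NCBI gene 98558, chr1:166201385-166238744, minus strand) encodes Maelstrom, a nuage protein needed for transposon silencing in the male germ line. It measured 70.1, 44.1 and 58.0 FPKM in control 1 to 3 and 55.2, 45.9 and 49.9 FPKM in aminophylline 1 to 3. Control 1 was the highest and control 2 the lowest of the 6 libraries, so that the aminophylline values lay wholly inside the control range. Means were 57.4 ± 13.0 FPKM (SD, n = 3) in control and 50.3 ± 4.66 FPKM (n = 3) in aminophylline, a difference of -0.17 (log2 scale, SE 0.19, 95% interval -0.59 to 0.26, adjusted p = 0.819). The value was below 0 in 16 of 16 alternative analyses, from -0.34 to -0.01, but its interval included 0 in the analysis reported; it was -0.01 without control 1 and -0.34 without control 2.

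Tdrd1, Tdrd9 and Tdrkh encode Tudor domain proteins. Tdrd1 (NCBI gene 83561, chr19:56826171-56870012, plus strand) is a scaffold that binds MILI. Its level was 15.8, 13.95 and 27.0 FPKM in control 1 to 3, and 18.9, 22.0 and 31.5 FPKM in aminophylline 1 to 3. Library 3 was the highest of each group, at 1.82 times the mean of the other 2 control libraries and 1.54 times that of the other 2 aminophylline libraries. The groups overlapped, with means of 18.9 ± 7.07 FPKM (SD, n = 3) in control and 24.2 ± 6.57 FPKM (n = 3) in aminophylline. The difference was 0.36 (log2 scale, SE 0.27, 95% interval -0.23 to 0.95, adjusted p = 0.745). The value moved with single libraries: it was 0.64 without control 3 (unadjusted p of 0.0208, adjusted p of 0.306 in limma), 0.18 without control 2 and 0.16 without aminophylline 3.

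Tdrd9 (NCBI gene 74691, chr12:111971488-112068854, plus strand) combines a Tudor domain with an RNA helicase and works with MIWI2. It stood at 1.09, 1.63 and 2.36 FPKM in control 1 to 3 and 1.14, 1.94 and 2.60 FPKM in aminophylline 1 to 3. The 2 groups ran in parallel by library number: number 1 was lowest and number 3 highest in each. The spread within each group was wide, with coefficients of variation of 37.5% in control and 38.7% in aminophylline against 7.36% and 6.45% from counting. Means of 1.69 ± 0.636 FPKM (SD, n = 3) and 1.89 ± 0.731 FPKM (n = 3) gave a difference of 0.10 on the log2 scale (SE 0.26, adjusted p = 0.929), and the sign turned under quantile normalization (-0.01).

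Tdrkh (NCBI gene 72634, chr3:94413243-94434854, plus strand) anchors PIWI proteins to mitochondria through its Tudor and KH domains. It measured 21.0, 13.4 and 21.8 FPKM in control 1 to 3 and 21.3, 21.2 and 25.6 FPKM in aminophylline 1 to 3. Only control 2 stood away from the rest, below every other library, and the other 5 lay between 21.0 and 25.6 FPKM. The difference was 0.29 (log2 scale, SE 0.22, 95% interval -0.19 to 0.77, adjusted p = 0.750), from means of 18.7 ± 4.63 FPKM (SD, n = 3) and 22.7 ± 2.53 FPKM (n = 3). Without control 2 the difference was 0.08. Its exons share 2255 bases, 36.7% of their length, with those of Oaz3 on the opposite strand. Oaz3 itself was given 2.09 to 3.17 FPKM, and without knowledge of strand the reads of the 2 genes over the shared bases cannot be told apart.

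Pld6 (NCBI gene 194908, chr11:59783893-59787657, minus strand) encodes the mitochondrial nuclease, also called Zucchini, that cuts piRNA precursors. It gave 40, 25 and 42 reads in control 1 to 3 (0.671, 0.999 and 0.745 FPKM) and 30, 44 and 37 reads in aminophylline 1 to 3 (0.599, 1.002 and 0.682 FPKM). Library 2 was the highest by FPKM in both groups. The group sums of 107 and 111 reads corresponded to 1.34 RPM (95% Poisson interval 1.10 to 1.63) and 1.33 (1.09 to 1.60), and no difference was detected in FPKM (exact permutation test, p = 0.8, n = 3 against 3). Counting alone gave coefficients of variation of 17.2% in control and 16.6% in aminophylline for Pld6, against the 21.4% and 27.9% measured.

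Dicer1 and Ago2 carry the RNA interference pathway of the oocyte. Dicer1 (NCBI gene 192119, chr12:104687740-104751968, minus strand) encodes the ribonuclease that cuts double-stranded RNA into guides. It stood at 17.9, 28.5 and 20.7 FPKM in control 1 to 3 and at 27.2, 35.7 and 28.4 FPKM in aminophylline 1 to 3. Library 2 was the highest of each group, each aminophylline library exceeded the control library of the same number, and the groups overlapped because control 2 lay above aminophylline 1 and 3. Means were 22.4 ± 5.51 FPKM (SD, n = 3) in control and 30.5 ± 4.60 FPKM (n = 3) in aminophylline, which is 1.36-fold on the log2(FPKM + 1) scale (95% interval 0.987 to 1.88). The log2 difference was 0.44 (SE 0.21), the largest among the members, and did not pass the test (unadjusted limma p of 0.0585, adjusted p = 0.688). With the library numbers as a block the unadjusted limma p was 0.0228 (adjusted p = 0.271), and without control 2 the difference was 0.63 (unadjusted limma p of 0.00806, adjusted p = 0.160), while without control 1 it was 0.30. The direction was the same in 16 of 16 alternatives, 4 of which gave an unadjusted p under 0.05, and the adjusted p ranged from 0.147 to 0.999 over them.

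Ago2 (NCBI gene 239528, chr15:73101625-73184947, minus strand) encodes the Argonaute that slices targets matched by endo-siRNAs. Its level was 14.1, 16.9 and 13.0 FPKM in control 1 to 3 and 15.1, 12.9 and 15.7 FPKM in aminophylline 1 to 3. Its coefficient of variation was 13.8% in control, the smallest of the 10 members there, and 10.1% in aminophylline, where only Mael (9.26%) was steadier. Means of 14.7 ± 2.02 FPKM (SD, n = 3) and 14.6 ± 1.47 FPKM (n = 3) gave 0.997-fold (95% interval 0.743 to 1.34, adjusted p = 0.994), so that neither a lower nor a higher level within that interval can be set aside.

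The ratios of Dicer1 to Ago2 and of Tdrd1 to Mael were then set out by library, comparisons chosen after the values were seen. Dicer1 was 1.27, 1.69 and 1.60 times Ago2 in control 1 to 3 and 1.80, 2.77 and 1.82 times Ago2 in aminophylline 1 to 3, so the groups did not overlap. The log2 difference of the Dicer1 to Ago2 ratio was 0.47 (SD 0.22 in control and 0.36 in aminophylline). Its exact permutation p of 0.1 is the smallest that 3 against 3 can give, and it belongs to a ratio picked from these same values. Tdrd1 was 0.226, 0.316 and 0.466 times Mael in control and 0.343, 0.481 and 0.631 times Mael in aminophylline, groups that overlapped (log2 difference 0.55, exact permutation p = 0.2, n = 3 against 3, not paired). Both ratios were higher in aminophylline in 3 of 3 pairs of libraries with the same number. Dicer1 and Tdrd1 by themselves were already higher in 3 of 3 such pairs, so the ratios give no separate support. Among single tested genes, 25.9% were higher in all 3 pairs and 12.5% had groups that did not overlap. The matching shares over other ratios of genes were not computed.

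Across the members, 0 of the 7 tested had an adjusted p under 0.05, as did 0.0% of all 10340 genes tested, for which the smallest adjusted p was 0.455. At an unadjusted p under 0.05 in limma, 0 of 7 members were called against 7.25% of all genes, and with a fold of 1.5 as well 0 of 7 against 3.21%. In the fit with library numbers as a block, 1 of 7 (Dicer1) had an unadjusted p under 0.05, where 14.2% of all genes did, and 0 of 7 had an adjusted p under 0.05, where 0.455% did. With the same cutoff on the recovered reads, limma's voom also called 1 of 7, again Dicer1, against 7.36%. Of all 10 members, 0 had groups that did not overlap, against 12.5% of the genes tested (7.51% higher and 4.96% lower in aminophylline). The log2 difference was above 0 for 5 of the 7 tested members and below 0 for 2, with a median of 0.10, the same to 2 decimals as the median over all genes tested, of which 64.8% lay above 0 and 35.2% below. Standard errors of the tested members ran from 0.19 to 0.34.

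**Figure D2:**
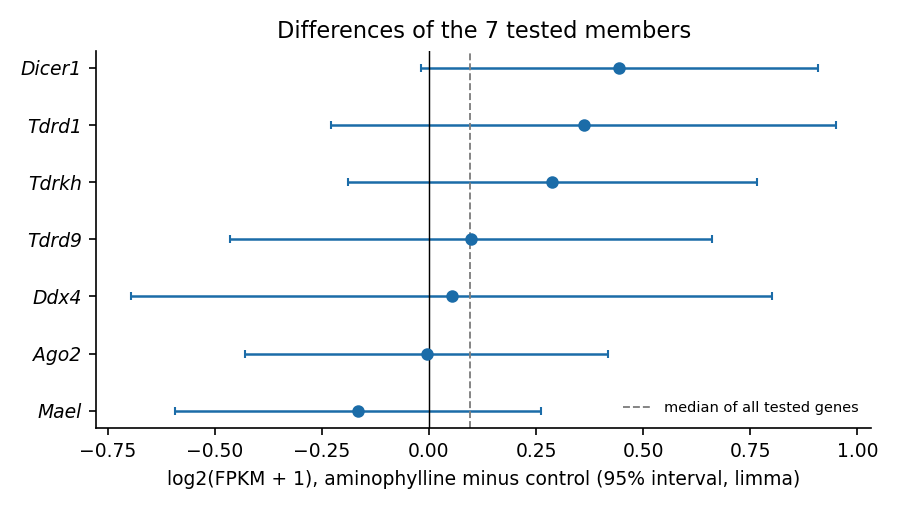
Difference between groups, aminophylline minus control, in log2(FPKM + 1) for the 7 tested members, with the 95% interval from limma. All 7 intervals include 0, and the dashed line is the median of all tested genes (0.10), near which Tdrd9 and Ddx4 lie.

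The libraries of a group differed among themselves, and partly by library number. Of the 10 members, 8 were highest in the same number in both groups (5 of the 7 tested), against 51.7% of all tested genes. Piwil2, Piwil4, Tdrd1, Tdrd9 and Tdrkh were highest in number 3 of both groups, as were 34.4% of tested genes, Pld6 and Dicer1 in number 2, as were 1036 of the 10340 tested genes, and Mael in number 1, as were 7.31%. Taking the libraries as pairs by number, aminophylline exceeded control in all 3 pairs for 5 of 10 members (Piwil2, Tdrd1, Tdrd9, Tdrkh and Dicer1), or 4 of the 7 tested, against 25.9% of all tested genes. Ddx4 did not follow the library number: control 3 was 2.77 times the mean of the other 2 control libraries, while aminophylline 3 was 0.960 times the mean of its group's other 2. What the shared number stands for (a day, a cohort of mice or a name only) is not given in the sources used here.

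**Figure D3:**
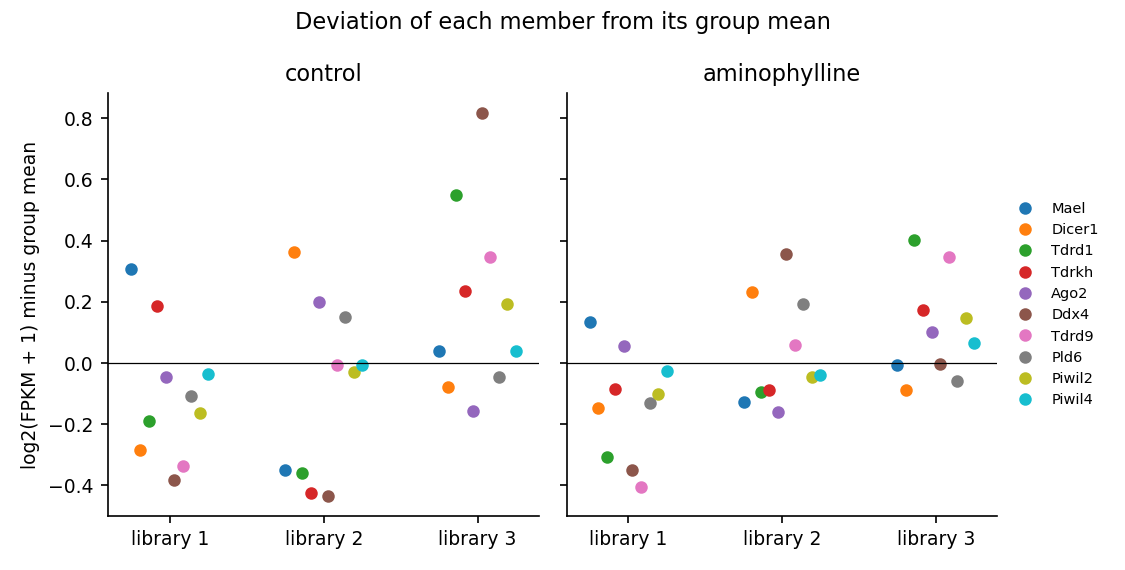
Deviation of each member from its own group mean, in log2(FPKM + 1), for library 1, 2 and 3 of control (left) and aminophylline (right); each colour is a gene. Tdrd1, Tdrd9 and Piwil2 sit below 0 in library 1 and above 0 in library 3 of both groups, Mael lies highest in library 1, Dicer1 in library 2, and Ddx4 reaches its highest value in control 3.

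Beyond the 10 members, 23 other piRNA pathway genes were listed, 22 had values (Tdrd15 was not analysed here) and 16 could be tested. Of the 16, 0 passed the test, 7 lay above 0 and 9 below, against 64.8% above 0 over all tested genes. Their median log2 difference was -0.02, against 0.10 over all tested genes. Asz1, a mitochondrial partner of the nuage that is needed for piRNA production, had an unadjusted limma p under 0.05. It was 1 gene of the 16, where 7.25% of all tested genes had such a p. Its level was 187.2, 132.7 and 177.6 FPKM in control 1 to 3 and 109.5, 128.5 and 126.5 FPKM in aminophylline 1 to 3, groups that did not overlap. The difference of -0.43 (log2 scale, SE 0.17) had an unadjusted limma p of 0.0299 and an adjusted p of 0.682, between 0.112 and 0.999 over the alternatives. Gtsf1, a zinc finger partner of PIWI proteins, was the most abundant of the list at 1385, 1755 and 1071 FPKM in control and 1597, 1312 and 1214 FPKM in aminophylline, far above every member (log2 difference -0.01, SE 0.20, adjusted p = 0.991), and its sign turned under quantile normalization (0.02). Tdrd12, a Tudor protein that acts in piRNA amplification, stood at 86.5, 70.5 and 71.5 FPKM in control and 66.9, 69.1 and 63.8 FPKM in aminophylline (log2 difference -0.19, SE 0.16, adjusted p = 0.767). Groups did not overlap for 3 of the 16, Asz1 and Tdrd12 lower and Fkbp6 higher in aminophylline, against 12.5% of all tested genes.

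Of 20 other genes of the microRNA and RNA interference pathways, 11 were tested. None passed the test and 0 had an unadjusted p under 0.05 in limma, while 8 lay above 0 and 3 below, with a median log2 difference of 0.27, against 64.8% above 0 and a median of 0.10 over all tested genes. The 3 most abundant were Tsn and Tsnax, the subunits of the nuclease that removes the passenger strand during loading, and Tarbp2, the double-stranded RNA binding partner of Dicer. Tsn measured 39.7, 53.0 and 45.8 FPKM in control and 53.5, 58.8 and 54.8 FPKM in aminophylline, without overlap (log2 difference 0.27, SE 0.17, adjusted p = 0.728). Tarbp2 stood at 15.9, 23.7 and 20.4 FPKM in control and 24.3, 24.5 and 22.4 FPKM in aminophylline (0.25, SE 0.19, adjusted p = 0.752). Tsnax differed by -0.17 (log2 scale, SE 0.27, adjusted p = 0.874). Groups did not overlap for 4 of the 11, Tnrc6b, Snd1 and Tsn higher and Tut7 lower in aminophylline, against 12.5% of all tested genes (7.51% higher and 4.96% lower). Among the other Argonautes, Ago3 averaged 7.95 FPKM, while Ago1 (0.0253 FPKM) and Ago4 (0.179 FPKM) were too low to test, so Ago2 was the most abundant of the family.

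A further list held 5 genes known to be matched by oocyte endo-siRNAs, which lie downstream of Dicer1 and Ago2. Of the 4 tested, 0 passed the test or had an unadjusted p under 0.05 in limma, and all 4 lay above 0, as did 64.8% of all tested genes, with a median of 0.18 on the log2 scale against 0.10. Pdzd11 had a log2 difference of 0.14 (SE 0.16, adjusted p = 0.816), Kif4 of 0.22 (SE 0.23, adjusted p = 0.795) and Hdac1 of 0.11 (SE 0.26, adjusted p = 0.918). With the library numbers as a block, 1 of the 4, Rangap1, had an unadjusted limma p of 0.0453 (adjusted p = 0.337), where 14.2% of all genes had an unadjusted p under 0.05.

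**Figure D4:**
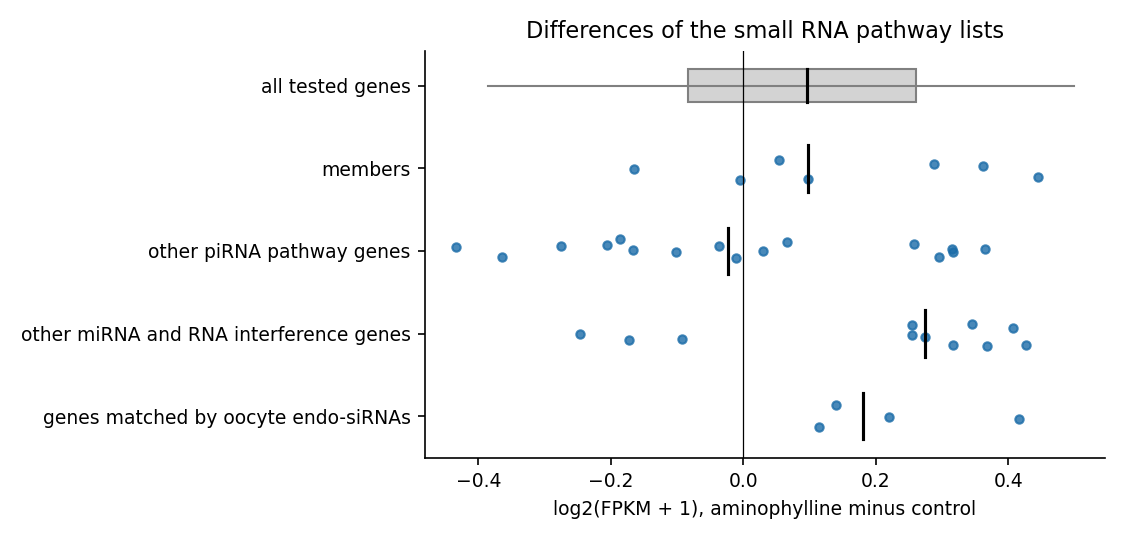
Log2(FPKM + 1) differences, aminophylline minus control, of the tested genes of each list (points) with the list's median (vertical mark), and of all tested genes as a box of the quartiles with lines from the 5th to the 95th percentile. The members' median of 0.10 falls on that of all tested genes, the other piRNA genes centre at -0.02 and the other microRNA and RNA interference genes at 0.27.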

How the data were processed

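The authors deposited 1 table with an FPKM value for each gene and library, aligned to mouse GRCm38 (mm10) according to the submitters' processing notes; the aligner, counter, gene annotation and strand setting are not given in the sources used here. The labels name a VAHTS Universal V6 library kit. Read counts were recovered from ratios of FPKM values between libraries: every gene with a value in 2 or more libraries (22583) gave whole numbers of reads (100%, tolerance 0.0001). Groups came from the labels. Genes with at least 1 FPKM in at least 3 of the 6 libraries (10340) were tested on log2(FPKM + 1) with limma 3.58.1 in R 4.3.3 (lmFit, eBayes with trend, two-sided, no block), with Benjamini-Hochberg adjustment over all of them and an adjusted p under 0.05 as the threshold. Members below the filter were compared with an exact permutation test (scipy 1.17.1), and read counts were given exact 95% Poisson intervals, which cover counting error only. The labels number the libraries 1 to 3 in both groups. Deviations from the group means correlated between same-numbered libraries at 0.138, 0.140 and 0.552, so a fit with the numbers as a block was an alternative. The main fit and the permutation tests did not pair the libraries. The other alternatives were another pseudocount, other filters, rescaling, library weights, an unmoderated model, leaving out each library, and voom on the recovered reads, which was chosen after seeing the data. Checked on simulated data, the test called 20 of 10104 unchanged genes among 10297. The simulation used the same dispersion for every gene and no effect of library number. It therefore does not show how the test behaves with the spread of the real libraries. Named genes were all 10 members, each listed gene with an unadjusted p under 0.05, and the 3 highest of each list. Piwil1 was named as well, as a PIWI gene outside the members. Members and lists were chosen with earlier results of these data known. Coordinates and promoter windows are from RefSeq, and exon overlaps from a GENCODE annotation of the same build.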

Additional observations from a re-analysis of the deposited data

How the results depend on the processing

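For each of the 4 lists (members, other piRNA genes, other microRNA and RNA interference genes, genes matched by endo-siRNAs) 0 genes had an adjusted p under 0.05 in every alternative run. At an unadjusted p under 0.05 the count of members went from 0 to 1 with library weights, with the replicate block and with voom (Dicer1 each time) and ranged from 0 to 1 on leaving out a library (Dicer1 without control 2, Tdrd1 without control 3). Over all genes the count at that p rose in some of the same settings: from 750 of 10340 to 2011 with library weights, 1467 with the replicate block and 761 with voom, and to 1593 of 10206 without control 2 and 1421 of 10023 without control 3. The other piRNA genes went from 1 to 2 with no filter, median centring or library weights, and from 0 to 3 on leaving out a library, with 3 without control 2 and 0 without control 1 or any 1 aminophylline library. Asz1 was not always the gene called: it was Fkbp6 in the unmoderated model, and Spocd1 and Tdrd5 without control 3, all higher in aminophylline. Over all genes the count was 1404 of 25631 with no filter. It was 783 of 10340 with median centring and 677 of 10340 in the unmoderated model. The other microRNA and RNA interference genes went from 0 to 2 in the unmoderated model, 4 with library weights and 1 with voom, and from 0 to 2 on leaving out a library, with 2 without control 3 and 1 without control 2. The genes matched by endo-siRNAs went from 0 to 1 with library weights and with the replicate block (Rangap1), and from 0 to 1 on leaving out a library (1 without control 3). The replicate block changed no other call of these lists. Over all genes it gave 47 at an adjusted p under 0.05, where the fit without it gave 0.

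The log2 difference turned sign for Ddx4 under quantile normalization (-0.0463) and median centring (-0.0288), and ranged from -0.165 to 0.462 on leaving out a library. For Tdrd9 it turned under quantile normalization (-0.0107) and ranged from -0.0762 to 0.300, for Ago2 it turned with voom (0.0181) and ranged from -0.0828 to 0.0954, and for Gtsf1 it turned under quantile normalization (0.0248) and with voom (0.0045) and ranged from -0.191 to 0.165. On leaving out a library Hdac1 ranged from -0.164 (without control 1) to 0.257, and Tsnax from -0.434 to 0.15 (without control 3). The cause was not tested. Mael, Dicer1, Tdrd1 and Tdrkh kept their direction in all 16 alternatives. Ddx4 and Tdrd9 gave no value where a mean of 5 FPKM was required. Rescaling moved the median over all genes from 0.10 to between 0.01 and 0.06. With no filter on low values all 10 members entered the fit, with unadjusted limma p of 0.662 for Piwil2, 0.897 for Piwil4 and 0.826 for Pld6. Reads were few for Piwil4 (0 to 8 a library).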

Other observations

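By the functional terms deposited with the table, 21 genes were annotated to piRNA processing, all 8 piRNA members among them. Of the 14 tested, 9 lay above 0 and 5 below with a median log2 difference of 0.08, and 1, Asz1, had an unadjusted limma p under 0.05. Over all tested genes 64.8% lay above 0, the median was 0.10 and 7.25% had an unadjusted p under 0.05. Of 60 genes annotated to RNA-mediated gene silencing, 43 were tested, with 27 above and 16 below 0, against 64.8% above 0 over all tested genes. Their median was 0.10 and 0 had an adjusted p under 0.05 in limma, as did 0.0% of all tested genes. Of 19 genes annotated to negative regulation of transposition, among them Ddx4, Piwil2, Piwil4 and Tdrd9, 13 were tested. Their median was 0.08 and 0 had an unadjusted limma p under 0.05, against 7.25% of all tested genes.

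Over the 6 libraries, the tested genes whose log2(FPKM + 1) followed Mael most closely were C330018D20Rik (Pearson r = 0.992), Tyw5, which makes a modified base of phenylalanine tRNA (0.990), and Vdac3, a channel of the outer mitochondrial membrane (0.986). These values describe 6 libraries that differ in depth and group, the genes were picked as the closest of 10340, and no test was made. The length implied by the FPKM values of Ddx4 was 4996 bases, against 3014 exon bases in the GENCODE annotation.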
